A study of Mus musculus with 48 samples.

Results

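Neuropeptides are cut from precursor proteins, and the 35 genes described here encode precursors of hypothalamic and related brain peptides: Npy, Agrp, Pomc, Cartpt, Penk, Pnoc, Sst, Cort, Crh, Trh, Avp, Oxt, Nts, Tac1, Vip, Adcyap1, Cck, Grp, Nmb, Nmu, Nms, Hcrt, Pmch, Ucn, Ucn3, Npvf, Npff, Ghrh, Npb, Apln, Rln3, Calca, Calcb, Nppa and Nppc. They were taken by symbol, with no measured value in the rule, and all 35 were present among the 23284 genes of the deposited table. The table holds 48 RNA-seq libraries of preoptic area punches from mice in which GnRH neurons, the neurons that release gonadotropin-releasing hormone, carried a GFP-tagged ribosomal protein L10a. GnRH-Cre males were bred to females homozygous for floxed-stop L10a-GFP, so the tag marks whichever cells have expressed Cre, and the labels do not say whether a library is 1 animal or a pool. RNA came either from the immunoprecipitate of the tagged ribosomes (IP) or from the GnRH-depleted supernatant left behind.

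The IP and the supernatant each gave 6 libraries of adult mice exposed before birth to DHT (dihydrotestosterone, an androgen that is not converted to estrogen), 5 of adult mice exposed to vehicle, 6 of young mice exposed to DHT and 6 of young mice exposed to vehicle. Series and labels describe females, prepubertal when young and in diestrus when adult. All 46 of these libraries came from mice carrying both GnRH-Cre and the floxed L10a-GFP, so no treated group lacks the tag. A further 2 libraries, 1 IP and 1 supernatant of young mice, came from floxed L10a-GFP mice without Cre and serve as the background of the pull-down. Whether replicates are separate animals is not stated, so each p-value measures the spread between these samples.

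A neuropeptide precursor enters the secretory pathway, is cleaved by prohormone convertases in dense-core vesicles and is released as shorter peptides that act mostly on G protein-coupled receptors. In the preoptic area, neurons that make neurotensin, enkephalin, somatostatin, galanin and other peptides lie among the scattered GnRH neurons, and their fibers are joined by those of arcuate, paraventricular and lateral hypothalamic cells whose bodies lie elsewhere. In bulk punches, fewer cells of a type and less RNA per cell cannot be told apart. The supernatant therefore shows the peptide repertoire of the punched tissue, and the IP shows what came down with tagged ribosomes, background included.

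Library totals ran from 28136004 to 55479453 estimated counts. As a check of the pull-down, Gnrh1 had at least 663.6 CPM (the count as a share of the library total, scaled by a fixed factor) in every IP library of mice with Cre, against at most 50.4 CPM in every supernatant. A label's protocol also mentions both sexes; the Y-linked Ddx3y and Uty did not pass 0.0593 and 0.0253 CPM in any library, and Kdm5d was at 0, while Xist, the RNA made from the inactive X chromosome, ran from 0.0349 to 18.11 CPM. The labels also carry a sample number, and the 10 highest numbers belong to replicates 4, 5 and 6 of young DHT and 5 and 6 of young vehicle mice in both fractions. These 10 libraries stand apart in how IP and supernatant of the same number match. Over the 17 members with a mean of at least 5 CPM, each as a log2 deviation from the mean of its fraction and age, the supernatant of the same number was the best match among supernatants of that age for 14 of the 18 other IP libraries but for 0 of the 5 IP libraries among the 10. Over 11373 genes at that level the counts were 16 of 18 and 0 of 5. The IP library labelled young DHT 4 correlated best with the supernatant labelled young vehicle 6 (r = 0.903 over the members), and the IP library labelled young vehicle 6 with the supernatant labelled young DHT 4 (r = 0.866). No label was changed. Whether DHT and vehicle labels of these libraries were exchanged in a fraction cannot be told from the files, and every young DHT and young vehicle value, and each comparison of the 2, depends on them.

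**Figure D1:**
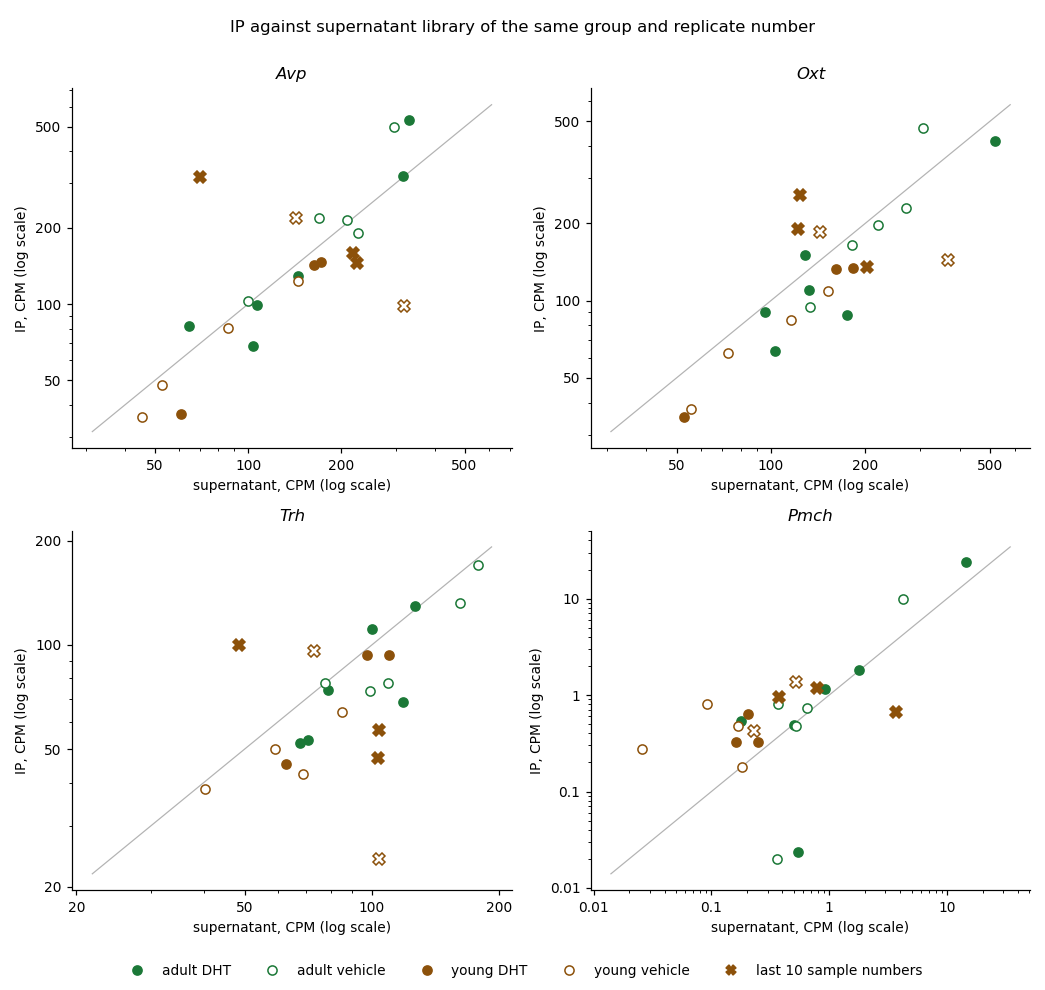
CPM of Avp, Oxt, Trh and Pmch in the IP library (y axis, log scale) against the supernatant library of the same group and replicate number (x axis, log scale), 23 points in each panel, with the line of equal values in grey. Filled points are DHT and open points vehicle, green adult and brown young; crosses mark the 10 highest sample numbers (5 pairs), which lie off the line for Avp, Oxt and Trh, and 1 IP library with no Pmch count is drawn at the foot of the panel.

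Levels were compared between members per kilobase of exon, using GENCODE M21 exon lengths on GRCm38 (mm10), the build of the deposited counts. Oxt and Avp, the precursors of oxytocin and vasopressin, led both fractions: Avp reached 302.1 ± 230.3 and Oxt 290.2 ± 201.5 CPM per kb in the IP, and Oxt 325.1 ± 198.8 and Avp 283.9 ± 156.4 CPM per kb in the supernatant (SD, n = 23). The SDs describe the spread between libraries and not the difference within a library. The order of these neighbours was not tested. Penk (enkephalins) and Sst (somatostatin) followed at 145.7 ± 55.07 and 145.4 ± 48.85 CPM per kb in the IP and 178.9 ± 53.86 and 166.0 ± 47.43 in the supernatant. Nts (neurotensin) stood at 67.55 ± 19.55 CPM per kb in the IP, where it was the fifth, and at 39.96 ± 12.75 in the supernatant, where Trh (thyrotropin-releasing hormone, 67.32 ± 23.97) was above it. The lowest members were Ucn (urocortin) with 0.0565 CPM per kb in the IP and 0.0423 in the supernatant, Calcb (beta calcitonin gene-related peptide) and Npff. Together the 35 genes made up 1282 ± 328.1 CPM in IP libraries of adult DHT mice, beside 1256 ± 205.1 CPM in their supernatants, and 1583 ± 403.6 CPM in IP libraries of adult vehicle mice, beside 1452 ± 250.9 CPM in their supernatants (SD). In young DHT mice the sums were 1177 ± 294.9 CPM for IP and 1151 ± 261.0 CPM for supernatant libraries, and in young vehicle mice 1011 ± 358.8 CPM for IP and 954.5 ± 347.9 CPM for supernatant libraries.

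**Figure D2:**
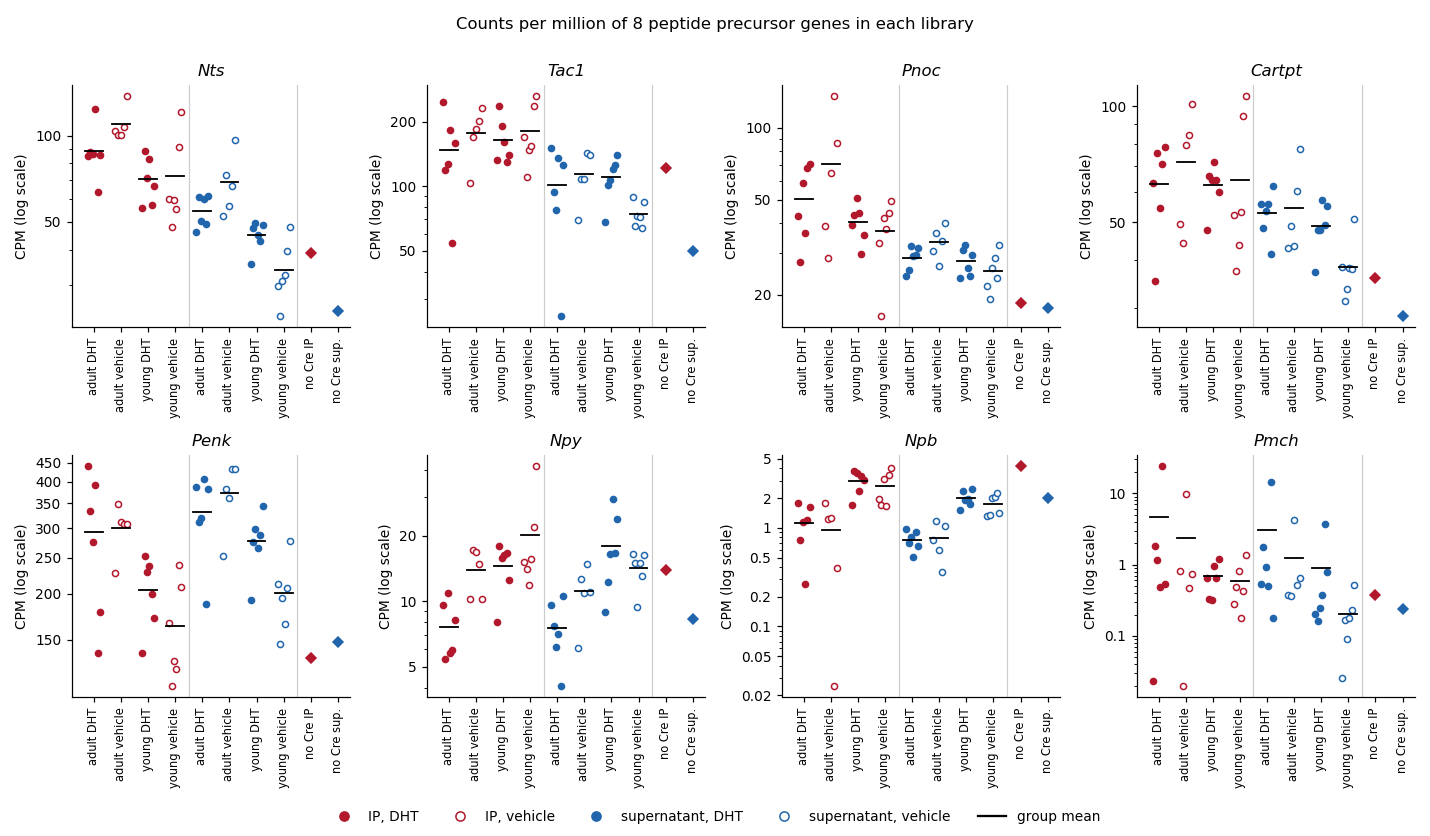
CPM (log scale) of 8 members in every library, IP in red left of supernatant in blue, with adult left of young and DHT (filled) left of vehicle (open); black lines are group means, diamonds the 2 libraries of mice without Cre, and a library at 0 is drawn at the foot of its panel. Nts, Tac1 and Pnoc lie higher in the IP than in the supernatant, Npb lies lower in adult than in young mice without overlap in the supernatant, and Pmch is high in single adult libraries.

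Promoters are shown for 3 of the called members: Nts and Cartpt, which were higher in the IP and higher in adult supernatant, and Npy, which was lower in adult mice. The 3 were picked by name. Called members with larger changes than Cartpt, such as Tac1, Nppa and Pmch, are not shown. Each is the 250 bases before the start site in RefSeq on GRCm38.p6, written 5′ to 3′ on the gene's strand. Capitals mark the cyclic AMP response element TGACGTCA and its shorter form TGACG, which overlaps it, and the AP-1 element TGANTCA, searched on both strands. Nts lies at chr10:102490419-102490668 on the minus strand, Cartpt at chr13:99900684-99900933 on the minus strand and Npy at chr6:49822460-49822709 on the plus strand.
Nts promoter: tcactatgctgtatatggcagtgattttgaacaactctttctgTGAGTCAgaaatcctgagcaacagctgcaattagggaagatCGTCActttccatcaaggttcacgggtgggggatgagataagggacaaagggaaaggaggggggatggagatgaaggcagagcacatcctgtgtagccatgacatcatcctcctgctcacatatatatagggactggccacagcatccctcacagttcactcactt
Cartpt promoter: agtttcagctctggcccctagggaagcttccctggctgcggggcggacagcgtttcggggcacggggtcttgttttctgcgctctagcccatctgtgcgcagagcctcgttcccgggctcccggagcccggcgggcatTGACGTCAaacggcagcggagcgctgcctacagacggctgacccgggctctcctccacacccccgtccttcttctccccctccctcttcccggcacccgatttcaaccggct
Npy promoter: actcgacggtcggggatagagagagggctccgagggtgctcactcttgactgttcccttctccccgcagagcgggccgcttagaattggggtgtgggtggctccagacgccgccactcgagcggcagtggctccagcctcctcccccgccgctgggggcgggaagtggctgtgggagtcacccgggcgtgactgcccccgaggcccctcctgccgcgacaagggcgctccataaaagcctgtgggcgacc
The Nts window held TGANTCA starting 207 bases and a TGACG on the other strand starting 166 bases before the start, and the Cartpt window held TGACGTCA starting 112 bases before it. None of these letters was found in the Npy window. Promoter windows that extend 50 bases past the start were found in the RefSeq table for 27 of the 35 members. TGACGTCA was in those of 3 members, Cartpt, Sst and Ucn, against 1.79% of all 32851 promoters. TGACG was in those of 14 members against 20.8% of all promoters, and TGANTCA in those of Avp, Nts, Nmu, Nms and Pmch against 7.81%. A match describes the letters of the window and not a bound site. GENCODE M21 places the outermost start of Nts and of Cartpt further upstream than RefSeq.

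The first comparison asked which precursor mRNAs came down with GnRH neuron ribosomes relative to the tissue left behind. Of the 35 members, 34 passed the filter on low counts (Ucn did not). Averaged over the 4 conditions, 6 members were higher in the IP at an adjusted p below 0.05 (edgeR quasi-likelihood F test, Benjamini-Hochberg over 16660 genes) and none was lower in this fit; 9 had an unadjusted p below 0.05. Over all genes tested, 46.1% were called and 24.4% were higher, so the members' share is not above the background. The split over all genes depended on the method, with 4065 higher and 3619 lower here, and 3650 higher and 6360 lower with limma-voom, whose median of all genes was -0.22. Of the members, limma-voom called 4 higher and 4 lower, the lower ones being Npff (-2.45), Rln3 (-1.77), Apln (-0.81) and Adcyap1 (-0.46), with adjusted p of 0.001539 to 0.03146. Npff and Rln3 had no count in 12 and 11 of 23 IP libraries. Npff averaged 0.241 CPM in the IP and 0.371 in the supernatant, and Rln3 0.246 and 0.300 CPM. For these 2 genes edgeR gave -0.46 and -0.29, so the size of the limma-voom values is not established. With the replicate number, which the labels give to both fractions, as a block, edgeR called 6 members higher and 6 lower, Penk (-0.27), Trh (-0.27) and Sst (-0.16) among the lower. The median member differed by a log2 fold change of 0.26, against -0.0032 for all genes. All 6 changes were small beside Gnrh1 itself, whose log2 fold change was 7.19 ± 0.26 (SE; adjusted p 4.142e-26).

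Nts encodes neurotensin, a peptide made by many preoptic neurons. Its IP libraries had 47.86 CPM at the lowest, 85.86 at the median and 137.4 at the highest, against 23.42, 48.73 and 96.43 CPM in the supernatants. The ranges overlap across conditions but not within young DHT, young vehicle, adult DHT or adult vehicle mice. Over 14995 genes in either direction, 15.1%, 16.6%, 10.1% and 15.5% did not overlap in these same groups. The log2 fold change was 0.84 ± 0.10 (adjusted p 9.364e-10), and Nts was called in each of the 4 conditions alone. Within adult vehicle mice, where the IP libraries had 103.8, 100.7, 100.3, 107.5 and 137.4 CPM and the supernatants 52.36, 72.81, 56.59, 66.84 and 96.43 CPM, it was 0.78 ± 0.21. Within adult DHT, young DHT and young vehicle mice it was 0.76 ± 0.19, 0.69 ± 0.19 and 1.12 ± 0.19.

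Tac1, the precursor of substance P and neurokinin A, had a lowest, median and highest value of 54.28, 160.6 and 262.2 CPM in the IP, against 24.86, 100.8 and 149.9 CPM in the supernatant. IP libraries were generally the higher, with overlap. The log2 fold change was 0.82 ± 0.14 (adjusted p 5.851e-06). Pnoc, the precursor of the opioid-like peptide nociceptin, had 16.29, 42.81 and 135.2 CPM in the IP, against 19.24, 28.93 and 40.0 CPM in the supernatant. Its highest IP library, of adult vehicle mice, lay far above every supernatant, while its lowest IP library lay below all of them. Its log2 fold change was 0.81 ± 0.13 (adjusted p 9.278e-07). Cartpt, the precursor of the cocaine- and amphetamine-regulated transcript peptides, had 35.14, 64.21 and 106.1 CPM in the IP, against 31.23, 48.29 and 77.29 CPM in the supernatant, with a log2 fold change of 0.50 ± 0.11 (adjusted p 0.0002479).

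The other 2 calls rest on less. Nppa, the precursor of atrial natriuretic peptide, had 0, 2.336 and 4.948 CPM in the IP, against 0.715, 1.239 and 2.076 CPM in the supernatant (log2 fold change 0.95 ± 0.33, adjusted p 0.01647). The annotation places an antisense transcript across Nppa, and the unstranded kit does not tell them apart. Pomc, the precursor of melanocortins and beta-endorphin, had 2.294, 10.96 and 22.9 CPM in the IP, against 3.532, 6.771 and 20.04 CPM in the supernatant (0.51 ± 0.21, adjusted p 0.04665). The Pomc call was lost in 33 of 46 fits that left out 1 library (adjusted p 0.0188 to 0.105). Without the 10 highest sample numbers, the adjusted p was 0.08197 for Nppa and 0.1805 for Pomc, while Nts, Tac1, Pnoc and Cartpt kept theirs below the threshold.

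The mice without Cre put these differences in context, since their IP holds only what the pull-down brings unspecifically. With 1 library in each fraction there is no test. The IP over supernatant ratio there was 2.44 for Tac1, 2.01 for Pomc, 1.61 for Nts, 1.26 for Cartpt, 1.05 for Pnoc and 0.496 for Nppa. For Gnrh1 the ratio of means was 125 in young vehicle mice with Cre, against 1.61 without Cre. With Cre, the ratio of means of Nts was 1.62 in adult DHT, 1.59 in adult vehicle, 1.57 in young DHT and 2.13 in young vehicle mice, against 1.61 without Cre. That of Tac1 was 1.46, 1.565, 1.49 and 2.41 in the same 4 groups, against 2.44 without Cre. For Nts the ratio with Cre was close to that without Cre in 3 of the 4 groups. For Tac1 the ratio with Cre was below that without Cre in all 4. The mice without Cre were young, so the adult groups have no control of their own age. The Tac1 ratio without Cre rests on a supernatant at 49.78 CPM, below the lowest young supernatant with Cre (64.1 CPM). The IP library without Cre, at 121.6 CPM of Tac1, lay within the range of young IP libraries with Cre (110.1 to 262.2 CPM). For Nts, the IP library without Cre, at 39.02 CPM, lay below the lowest IP library with Cre (47.86 CPM). Its supernatant without Cre, at 24.3 CPM, was near the lowest with Cre (23.42 CPM). How much of the Tac1 and Nts differences is unspecific was not tested. Of 29 members with more than 3 counts in both libraries, 5 were at least 2-fold higher and 2 at least 2-fold lower in the IP without Cre, and the median log2 ratio was 0.083, against 0.076 over 15094 genes.

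**Figure D3:**
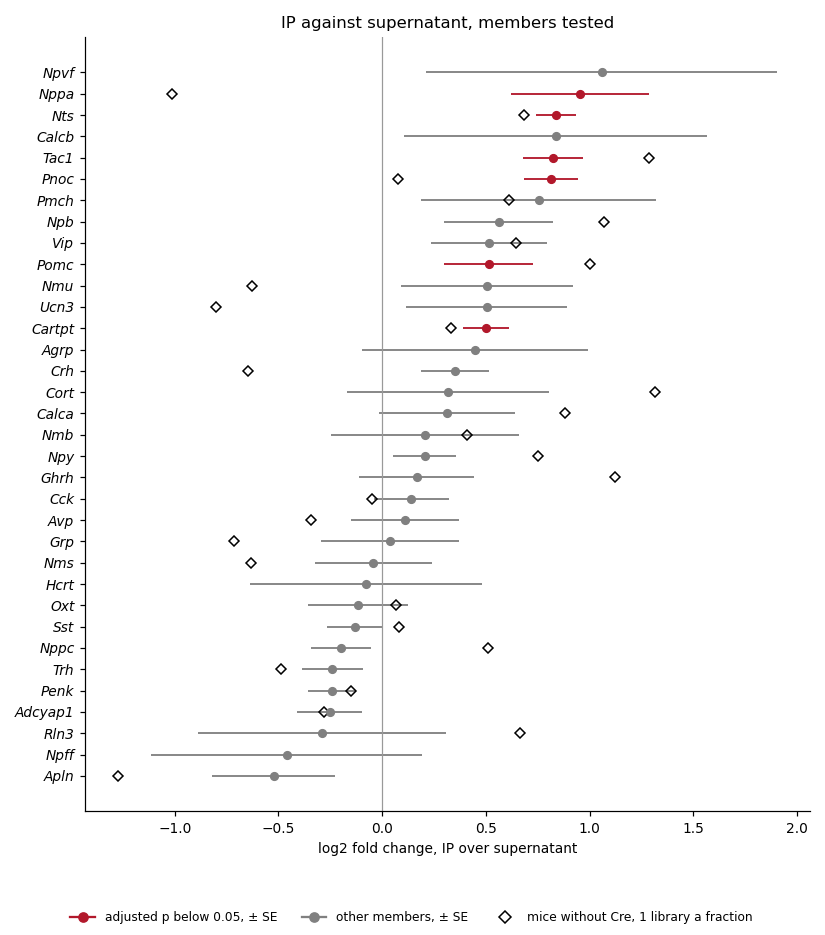
Log2 fold change of IP over supernatant (x axis, bars ± SE) for the 34 members tested, averaged over 4 conditions of 46 libraries, with the ratio of the 2 libraries of mice without Cre as open diamonds. The 6 members called are in red; the diamonds of Tac1 and Pomc lie to the right of their points and those of Pnoc and Nppa lie to the left.

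Within single conditions fewer members were called. In adult DHT mice the calls were Nts and Pnoc (0.89 ± 0.25), 2 of 34 members against 21.5% of genes, and in adult vehicle mice they were Nts and Pnoc (1.21 ± 0.28), 2 of 34 against 24% of genes. In young DHT mice only Nts was called, 1 of 34 against 20% of genes. In young vehicle mice Nts, Tac1 (1.30 ± 0.28, adjusted p 0.0006336) and Cartpt (0.78 ± 0.22, adjusted p 0.007342) were called, 3 of 34 against 21.9% of genes. Tac1 had 110.1, 161.7 and 262.2 CPM (lowest, median, highest) in young vehicle IP, against 64.1, 72.34 and 89.1 CPM in young vehicle supernatant. These did not overlap, which held there for 16.6% of 14995 genes in either direction. Without the 10 highest sample numbers, Tac1 (0.90, adjusted p 0.08476) and Cartpt (0.35, adjusted p 0.3606) were no longer called there. Leaving out the IP library labelled young vehicle 6 alone took the Cartpt call (0.52, adjusted p 0.07356).

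The 28 members tested and not called included the most abundant precursors. Avp had a log2 fold change of 0.11 ± 0.26, Oxt of -0.12 ± 0.24, Sst of -0.13 ± 0.14, Penk of -0.24 ± 0.11 and Trh of -0.24 ± 0.15 in the mean contrast. Apln, the precursor of apelin, did not overlap in adult DHT mice and was not called there. It had 0.0349, 4.468 and 6.565 CPM (lowest, median, highest) in the IP, against 8.177, 9.337 and 10.98 CPM in the supernatant. In that comparison 10.1% of 14995 genes did not overlap in either direction. Otp and Pou3f2 of the 3 paraventricular and supraoptic markers, and Tbx3 and Ghsr of the 4 arcuate markers, were lower in the IP. Of the 6 genes listed as suprachiasmatic markers 1 was higher, Six6 (2.84 ± 0.24), and 1 lower, Prok2 (-0.96 ± 0.21). Which cells the Six6 RNA came from was not tested. Six6 averaged 62.63 ± 38.03 CPM in adult IP and 9.007 ± 4.63 CPM in adult supernatant (SD, n = 11 each). Otp, a transcription factor of neurosecretory neurons, averaged 0.378 ± 0.402 CPM in adult IP and 4.88 ± 2.62 CPM in adult supernatant (SD, n = 11 each). Astrocyte markers were lower in the IP for 5 of 6 genes and oligodendrocyte markers for 4 of 6. Their part in the members' values was not tested.

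The second comparison asked how precursor mRNAs of the preoptic area differ between adult and prepubertal mice. In the supernatant, 32 members passed the filter (Ucn, Npvf and Calcb did not), and 11 were called when DHT and vehicle mice were averaged: 8 higher and 3 lower in adults, against 36.1% of 16286 genes. The members' share of 34.4% is near that background. The median log2 fold change was 0.21 for the members and 0.016 for all genes. Of all genes 18.9% were higher and 17.2% lower. Among the 11, Agrp (agouti-related peptide) was the lowest in level, with medians of 0.3319 CPM in adults and 0.5801 CPM in young mice. With the 10 highest sample numbers left out 11 were called as well, 9 higher and 2 lower, with Hcrt (2.06, adjusted p 0.03908) called and Agrp (-0.61, adjusted p 0.1775) not.

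Npb, the precursor of neuropeptide B, fell most clearly in adult supernatant. It had 0.359, 0.758 and 1.169 CPM (lowest, median, highest of 11) in adult mice, against 1.329, 1.943 and 2.452 CPM (of 12) in young mice. All adult libraries lay below all young libraries, which held for 3.79% of 14995 genes in either direction. The log2 fold change was -1.27 ± 0.18 (adjusted p 9.922e-06), -1.39 ± 0.25 within DHT and -1.15 ± 0.27 within vehicle mice. Npy, whose neuropeptide Y stimulates feeding and acts on GnRH neurons, had 4.073, 9.64 and 14.79 CPM in adult supernatant, against 8.885, 15.66 and 29.47 CPM in young supernatant. Adults were mostly the lower, with overlap (-0.81 ± 0.18, adjusted p 0.001014). The Npy difference was -1.23 ± 0.25 within DHT mice (adjusted p 0.001092) and fell short of a call there without the 10 highest sample numbers (-0.74, adjusted p 0.1061).

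Penk and Nts rose in adult supernatant. Penk had 187.8, 381.4 and 432.8 CPM in adult supernatant, against 146.0, 238.9 and 344.7 CPM in young supernatant (0.56 ± 0.12, adjusted p 0.00091). Its annotated locus overlaps a transcript on the opposite strand, A830012C17Rik, with which an unstranded count can share reads. Nts had 45.91, 60.07 and 96.43 CPM in adult supernatant, against 23.42, 41.14 and 49.67 CPM in young supernatant (0.64 ± 0.11, adjusted p 5.11e-05). For both genes most adult libraries lay above the young median, with overlap. Within vehicle mice the differences were 0.87 ± 0.18 for Penk and 0.99 ± 0.15 for Nts. There the Nts libraries did not overlap, which held for 11.6% of 14995 genes in either direction. Nts had 52.36, 72.81, 56.59, 66.84 and 96.43 CPM in adults, against 23.42, 31.86 and 47.82 CPM (lowest, median, highest) in young mice.

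Smaller rises were called for Apln (0.44 ± 0.11), Cartpt (0.30 ± 0.10), Crh (corticotropin-releasing hormone, 0.45 ± 0.16), Nms (neuromedin S of the suprachiasmatic nucleus, 0.52 ± 0.18) and Ghrh (growth hormone-releasing hormone, 0.48 ± 0.18). Apln had 8.177, 9.517 and 10.98 CPM in adult supernatant, against 4.804, 7.042 and 10.91 CPM in young supernatant. Nms had 2.713, 4.591 and 7.169 CPM in adult supernatant, against 1.505, 3.191 and 4.961 CPM in young supernatant. Calls of Crh, Ghrh and Nms were near the threshold: 8, 9 and 4 of 23 fits that left out 1 library no longer made them (highest adjusted p 0.0618, 0.0692 and 0.0656). Cartpt lost its call without adult vehicle 5 (0.22, adjusted p 0.05067). Without the 10 highest sample numbers all 5 kept theirs.

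Pmch, the precursor of melanin-concentrating hormone of the lateral hypothalamus, had the largest fold difference of the 11 and the most uneven libraries. Its adult DHT supernatants had 0.538, 1.782, 0.918, 0.501, 14.36 and 0.178 CPM and its adult vehicle supernatants 0.370, 0.358, 4.196, 0.527 and 0.649 CPM, against 0.0256, 0.218 and 3.685 CPM (lowest, median, highest of 12) in young supernatants. A single library in each adult group carried most of the counts. The log2 fold change of 2.13 ± 0.74 (adjusted p 0.02744) was 1.16 (adjusted p 0.1182) without adult DHT 5 and 1.47 (adjusted p 0.1137) without adult vehicle 3. The IP libraries of the same 2 numbers were also the highest of their groups, at 24.06 CPM in adult DHT 5 and 9.867 CPM in adult vehicle 3. Pmch lies within Parpbp, a gene on the opposite strand.

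Within vehicle mice, 9 members were called in the supernatant, against 20.3% of genes. Besides Nts, Penk, Crh, Cartpt, Apln and Npb they were Trh (0.78 ± 0.26), Adcyap1 (PACAP, 0.61 ± 0.19) and Pnoc (0.38 ± 0.13). Trh had 77.45, 178.3, 161.5, 99.1 and 109.4 CPM in adult vehicle supernatants, against 40.24, 70.83 and 104.1 CPM (lowest, median, highest) in young vehicle supernatants. Adcyap1 had 20.98, 34.27, 30.33, 23.64 and 33.49 CPM in adults, against 14.09, 17.9 and 22.76 CPM in young mice. Within DHT mice, 2 members were called, Npb and Npy, against 19.9% of genes. Leaving out 1 library ended the vehicle calls of Crh in 7, Trh in 6, Pnoc in 6, Adcyap1 in 3, Apln in 2 and Cartpt in 1 of 11 fits (highest adjusted p 0.1213, for Trh), and no such fit ended those of Nts, Penk or Npb. The calls without the 10 highest sample numbers were 12 in vehicle mice, with Vip (1.68), Nms (0.83) and Ghrh (0.74) added, and in DHT mice they were Npb and Apln (0.65, adjusted p 0.00897).

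**Figure D4:**
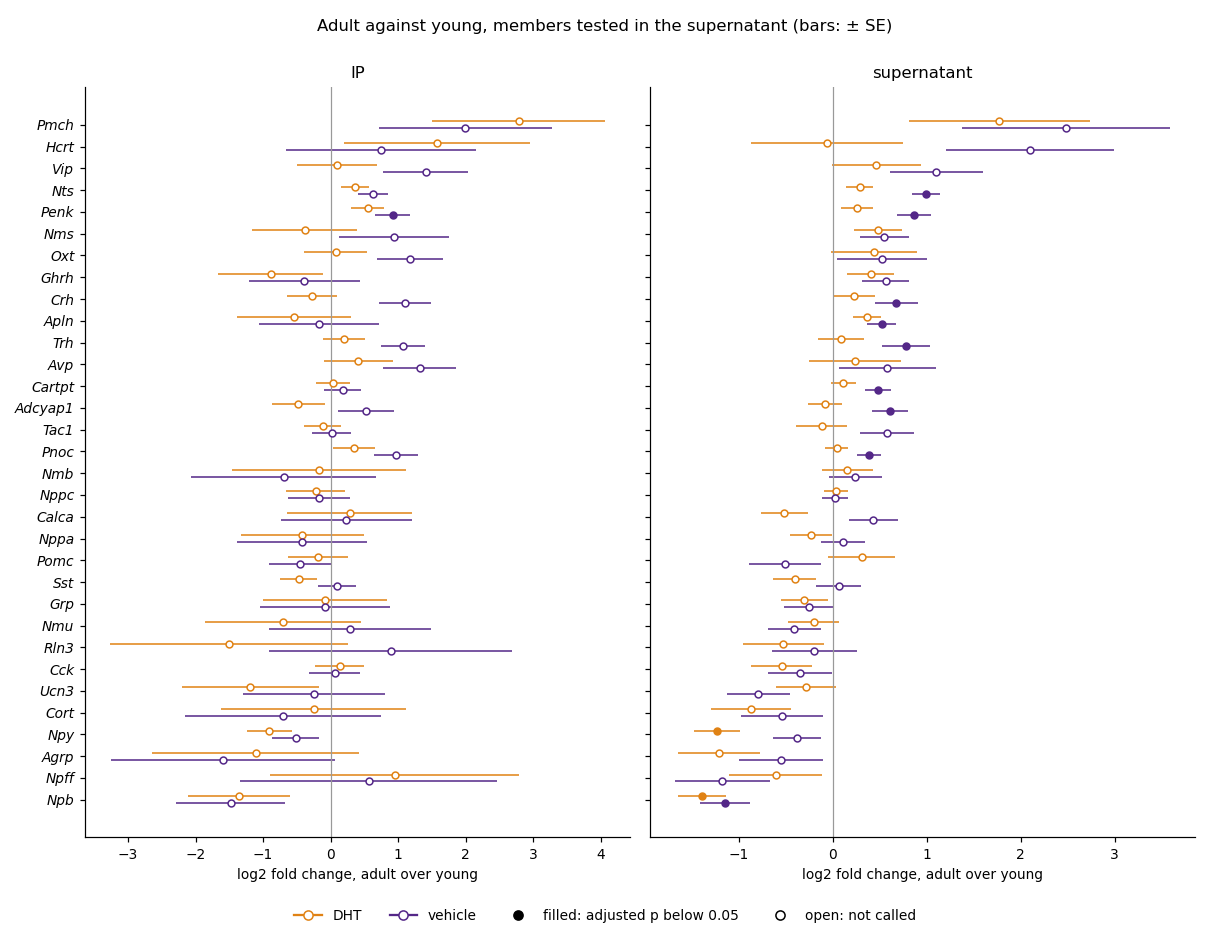
Log2 fold change of adult over young (x axis, bars ± SE) in IP (left panel) and supernatant (right panel) for the 32 members tested in the supernatant, with DHT mice in orange and vehicle mice in purple; filled points have an adjusted p below 0.05. Npb lies to the left in both treatments of the supernatant, while Nts, Penk, Trh, Crh, Cartpt, Adcyap1, Pnoc and Apln are filled on the right for vehicle mice only; this difference between treatments was not called by the interaction test.

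In the IP, 34 members were tested and 4 were called over both treatments, against 15.1% of 15890 genes. In simulated data this comparison recovered 42 of 100 genes changed 2-fold, against 94 in the supernatant. The counts of members called in IP and supernatant therefore do not compare the fractions. Penk had 138.7, 308.6 and 440.5 CPM in adult IP, against 112.9, 185.9 and 251.7 CPM in young IP (0.73 ± 0.18, adjusted p 0.005691). Nts had 63.5, 100.3 and 137.4 CPM in adult IP, against 47.86, 63.36 and 120.9 CPM in young IP (0.49 ± 0.15, adjusted p 0.02729). Both were higher in adults in most libraries, with overlap. The Nts call was lost without young vehicle 1 (0.45, adjusted p 0.0702), adult DHT 4 (0.43, adjusted p 0.0724) or adult vehicle 5 (0.45, adjusted p 0.05081). Pnoc (0.66 ± 0.23, adjusted p 0.04885) and Npy (-0.71 ± 0.24, adjusted p 0.04632) were at the threshold, and lost their calls in 18 and 16 of 23 fits that left out 1 library. Npy had 5.405, 10.21 and 17.26 CPM in adult IP, against 8.0, 15.69 and 41.83 CPM in young IP, the highest being the library labelled young vehicle 6, without which the log2 fold change was -0.53 (adjusted p 0.1116). Without the 10 highest sample numbers, Penk and Nts stayed called and Pnoc (adjusted p 0.1277) and Npy (-0.38, adjusted p 0.4475) did not.

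Within vehicle mice, Penk was the 1 member called in the IP (0.91 ± 0.26, adjusted p 0.04292), against 3.83% of genes. Its adult vehicle IP libraries had 227.8, 349.3, 311.9, 308.6 and 308.0 CPM, against 112.9, 149.0 and 238.9 CPM (lowest, median, highest) in young vehicle IP, and 8 of 11 fits that left out 1 library did not call it. Nts was called there as well without the 10 highest sample numbers (1.04, adjusted p 0.006152). Within DHT mice, edgeR called 0 of 34 members, against 7.12% of genes. DESeq2 called 1, Npy, limma-voom called 0, and 3 members had an unadjusted p below 0.05 with edgeR: Npy (-0.91 ± 0.33, adjusted p 0.09937), Penk (0.55 ± 0.24, adjusted p 0.1895) and Pmch (2.78 ± 1.28, adjusted p 0.2105). Npb, which fell in adult supernatant, had 0.0250, 1.211 and 1.791 CPM in adult IP, against 1.667, 3.087 and 3.999 CPM in young IP. EdgeR did not call it there (-1.42 ± 0.55, adjusted p 0.08652), while DESeq2 (-1.44, adjusted p 0.006786) and limma-voom (-1.99, adjusted p 0.01508) did.

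Other cell types differed between the ages as well. All 6 oligodendrocyte markers were lower in adult supernatant and 5 of 6 in adult IP. Their summed level had a median of 2608 CPM in adult DHT and 2418 CPM in adult vehicle supernatant, against 5100 CPM in young DHT and 5362 CPM in young vehicle supernatant. The highest adult DHT supernatant (4495 CPM) just passed the lowest young DHT supernatant (4468 CPM). Of the lateral hypothalamic markers, Pdyn (dynorphin), Mc3r and Lhx9 were higher in adult supernatant, 3 of 4. Of 6 suprachiasmatic markers Syt10 and Prok2 were higher, of 4 arcuate markers Ghsr was, and of the 3 paraventricular and supraoptic markers none was called. Pituitary markers were at 2.571 CPM or less when summed, with Fshb at 0 in all 46 libraries. The part of these differences in the members' values was not tested.

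The third comparison asked whether prenatal DHT altered the precursors. Of the members tested, edgeR called 0 in adult IP, 0 in young IP, 0 in adult supernatant and 0 in young supernatant, and DESeq2 and limma-voom also called 0 in each. In simulated data, 29 of 100 genes changed 2-fold were recovered in adult IP and 36 in young IP. In adult and young supernatant 91 and 92 were recovered. A count of 0 in the IP is therefore not evidence that the members were unchanged. Over all genes the share called was 0.00629% in adult IP and 0% in each of the other 3 settings. The numbers of members with an unadjusted p below 0.05 were 1 in adult IP, 0 in young IP, 4 in adult supernatant and 6 in young supernatant. The median log2 fold change of the members was -0.30 in adult IP, 0.12 in young IP, -0.16 in adult supernatant and 0.19 in young supernatant, against values between -0.0193 and 0.0013 over all genes.

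In adult IP the smallest p belonged to Npy. It had 5.405, 7.07 and 10.88 CPM (lowest, median, highest of 6) in DHT mice, against 10.26, 17.26, 16.81, 14.77 and 10.21 CPM in vehicle mice, and the highest DHT library lay above the lowest vehicle library. The log2 fold change was -0.88 ± 0.35 (adjusted p 0.4493). Sst had 47.12, 77.13 and 128.8 CPM in DHT mice, against 97.5, 86.14, 160.0, 115.0 and 120.4 CPM in vehicle mice (-0.53 ± 0.28, adjusted p 0.6649). Crh had 7.115, 11.36 and 40.93 CPM in DHT mice, against 31.62, 15.29, 32.26, 25.05 and 38.32 CPM in vehicle mice (-0.69 ± 0.39, adjusted p 0.6886). In young IP, Cck (cholecystokinin, -0.70 ± 0.36), Crh (0.69 ± 0.37) and Trh (0.47 ± 0.31) had the smallest p, each with an adjusted p of 1.

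In adult supernatant, Pomc split the DHT libraries. They had 18.38, 3.951, 17.04, 3.532, 20.04 and 5.332 CPM, against 4.456, 4.248, 7.454, 4.643 and 6.146 CPM in vehicle mice. In DHT mice 3 libraries lay above every vehicle library and the other 3 lay within or below their range, and the log2 fold change of 1.09 ± 0.39 was not called (unadjusted p 0.009389, adjusted p 1). The 8 pituitary markers summed to at most 2.074 CPM in these DHT supernatants. Calca (alpha calcitonin gene-related peptide) had 0.829, 1.337 and 1.569 CPM in DHT mice, against 1.331, 2.172, 2.246, 2.082 and 1.983 CPM in vehicle mice (-0.60 ± 0.26). Nts had 45.91, 55.17 and 61.53 CPM in DHT mice, against 52.36, 72.81, 56.59, 66.84 and 96.43 CPM in vehicle mice (-0.33 ± 0.15). Both had an adjusted p of 1.

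In young supernatant the smallest p belonged to genes that were higher after DHT. Penk had 192.0, 281.9 and 344.7 CPM in DHT mice, against 146.0, 200.8 and 277.4 CPM in vehicle mice (0.45 ± 0.17). Nts had 35.47, 46.32 and 49.67 CPM in DHT mice, against 23.42, 31.86 and 47.82 CPM in vehicle mice (0.38 ± 0.15). Cartpt had 37.17, 48.51 and 57.05 CPM in DHT mice, against 31.23, 37.95 and 51.09 CPM in vehicle mice (0.33 ± 0.13). The groups overlapped for all 3 genes, and each adjusted p was 0.9759. Without the 10 highest sample numbers, which fall in these groups, the differences were 0.50, 0.59 and 0.32, with adjusted p of 0.4443, 0.1368 and 0.5042.

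**Figure D5:**
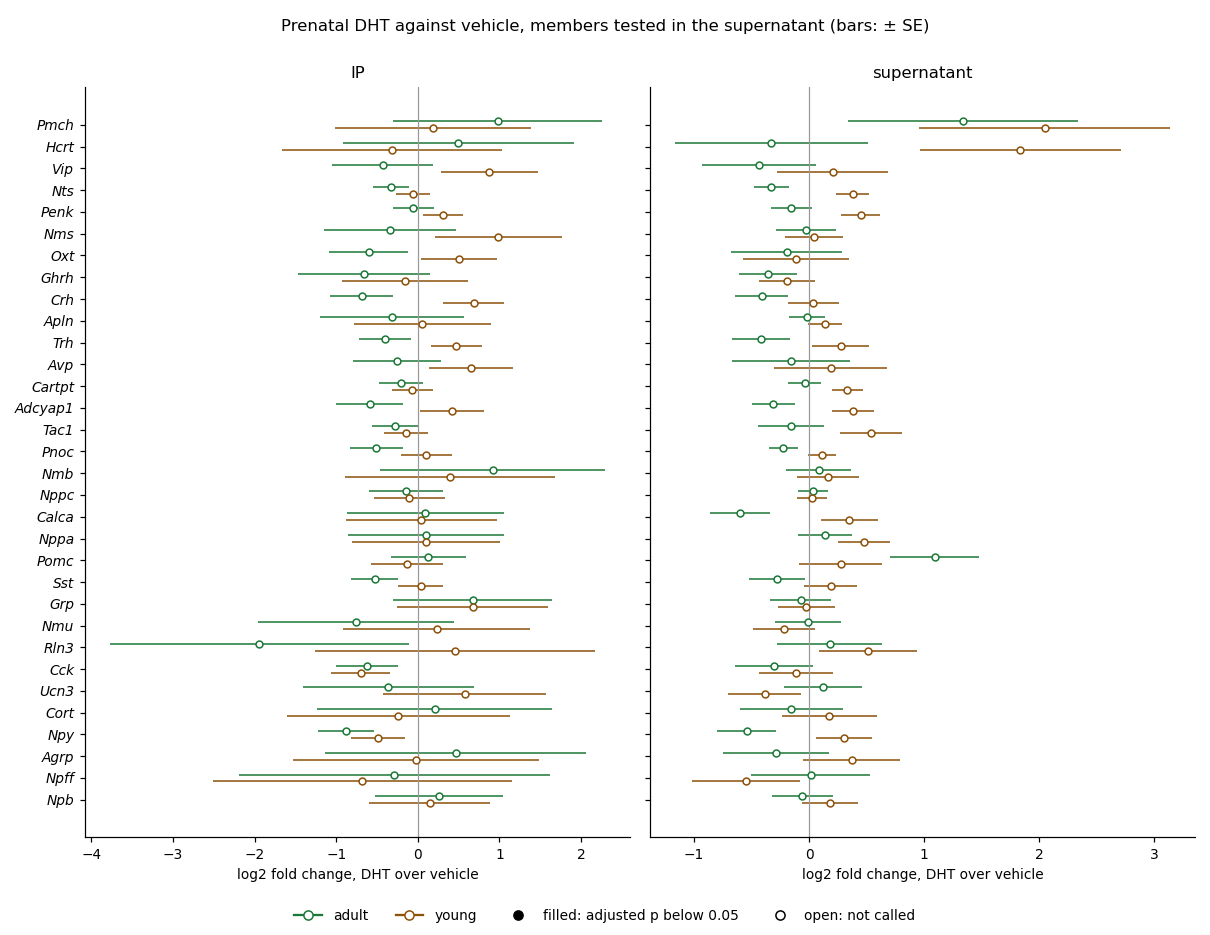
Log2 fold change of DHT over vehicle (x axis, bars ± SE) in IP (left panel) and supernatant (right panel) for the 32 members tested in the supernatant, with adult mice in green and young mice in brown. No point is filled, since no member had an adjusted p below 0.05, and in the supernatant 24 of 32 adult points lie left of 0 and 25 of 32 young points right of it.

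In the supernatant 24 of 32 members were lower after DHT in adults and 25 of 32 were higher after DHT in young mice, while 8 and 7 went the other way. The age by treatment interaction, which tests this difference gene by gene, called 0 of 32 members and 0% of all genes in the supernatant. It had 5 members with an unadjusted p below 0.05, and 27 of 32 members were negative with a median of -0.34, against 0.0013 over all genes. The smallest p were those of Nts (-0.71 ± 0.21, unadjusted p 0.002508), Adcyap1 (-0.70 ± 0.26) and Calca (-0.95 ± 0.36), each with an adjusted p of 0.8747. In the IP the interaction called 0 of 34 members and 0% of genes, 1 member had an unadjusted p below 0.05, and Crh had the smallest p (-1.37 ± 0.54, adjusted p 0.8304). DESeq2 and limma-voom also called 0 members in either fraction. These signs are not independent, since all 4 groups enter each interaction and members share libraries.

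Whether the age difference differed between IP and supernatant was tested by the age by fraction interaction, which called 0 of 34 members against 4.52% of genes. No member had an unadjusted p below 0.05, and DESeq2 and limma-voom called 0. Ghrh (-1.10 ± 0.56), Calcb (-2.64 ± 1.43) and Pnoc (0.47 ± 0.26) had the smallest p. The calls of Npb in the supernatant and of Pnoc in the IP are therefore not shown to be particular to a fraction.

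Some members varied together from library to library. After subtracting group means of log2(CPM + 0.1) in the 23 supernatants, Avp and Oxt, made by neighbouring magnocellular neurons, had r = 0.755 and rho = 0.705 (permutation p 0.00016 and 0.00059, adjusted over 5 pairs 0.00045 and 0.000983). Without the 2 libraries farthest from the Avp median, r was 0.653. Hcrt (orexin) and Pmch of the lateral hypothalamus had r = 0.740 and rho = 0.717 (permutation p 0.00018 and 0.00029, adjusted 0.00045 and 0.000725), with r = 0.690 without the 2 farthest libraries. Vip and Nms of the suprachiasmatic nucleus had r = 0.747 and rho = 0.796 (permutation p 0.0006 and 0.00021, adjusted 0.001 and 0.000725), with r = 0.707 without the 2 farthest. Npy with Agrp (r = 0.237, rho = 0.219, permutation p 0.3666 and 0.3466, adjusted 0.4582 and 0.4333) and Pomc with Cartpt (r = 0.0765, rho = 0.153, permutation p 0.7163 and 0.512, adjusted 0.7163 and 0.512) did not pass. Without the 2 farthest libraries these were 0.155 and 0.290.

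IP and supernatant libraries of the same number also shared member levels. Among the 17 members with a mean of at least 5 CPM, 11 had an adjusted permutation p below 0.05 for r over 23 pairs. Over the 18 pairs outside the 10 highest sample numbers, 13 did. No share over all genes is given for this test, so these counts are not shown to be particular to the members. Sst had r = 0.833 and rho = 0.734 over 23 pairs (adjusted permutation p 0.0005667 and 0.0034), with r = 0.744 without the 2 farthest pairs. Avp had r = 0.700 and rho = 0.772 (adjusted permutation p 0.00306 and 0.001643), r = 0.616 without the 2 farthest pairs and r = 0.931 over the 18 pairs. Trh had r = 0.300 and rho = 0.315 (adjusted permutation p 0.2259 and 0.2093), r = 0.228 without the 2 farthest pairs and r = 0.832 over the 18 pairs, as the panels of single pairs show. Apln (r = 0.0828, rho = 0.0553, adjusted permutation p 0.6128 and 0.7841) and Nppc (r = 0.171, rho = 0.190, adjusted permutation p 0.4465 and 0.4004) did not pass over either set of pairs, with r of 0.0452 and 0.273 without the 2 farthest pairs.

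The enzymes that process these precursors are a second group of 12 genes. In the IP against the supernatant, 5 were higher, against 24.4% of all genes, and 0 lower, among them Scg5, the chaperone of prohormone convertase 2 (0.80 ± 0.09), and Qpct, the glutaminyl cyclase (0.77 ± 0.10). In adult IP against young IP, 5 were higher and 1 lower, against 15.1% of genes called, and in adult supernatant 4 were higher and 0 lower, against 36.1%. Pcsk1, prohormone convertase 1, averaged 22.9 ± 11.4 CPM in adult IP and 10.2 ± 3.79 CPM in young IP, and 14.6 ± 2.24 CPM in adult supernatant and 9.3 ± 2.66 CPM in young supernatant (SD, n = 11 adult and 12 young), with log2 fold changes of 1.21 ± 0.31 and 0.64 ± 0.13. Pcsk1n, the precursor of a convertase inhibitor, was the 1 lower in adult IP (-0.70 ± 0.17). Pcsk2, prohormone convertase 2, rose in adults in both fractions, by 0.52 ± 0.17 in the IP and 0.44 ± 0.07 in the supernatant. The members of this group and the next were listed with earlier results of these data known. Of 29 other peptide precursors, 27 were in the table, and 17 were tested in the IP and 16 in the supernatant. Iapp, the precursor of amylin, was at 0 in 11 of 12 young IP libraries and averaged 1.04 ± 0.839 CPM in adult supernatant and 0.0402 ± 0.0607 CPM in young supernatant (log2 fold change 4.69 ± 0.55, adjusted p 4.694e-07). In the same fit Nucb2, Igf2, Cbln1 and Pthlh were the other 4 called, giving 3 higher and 2 lower of the 16 tested. Of all genes 18.9% were higher and 17.2% lower, so this count is not above the background.

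The remaining members were low or called in no comparison of the main edgeR fits. Sst, Avp, Oxt, Vip, Cck, Grp, Nmb, Nmu, Hcrt, Ucn3, Cort (cortistatin), Rln3 (relaxin-3), Npff, Calca and Nppc passed the filter and were called in none of these. Some of them, Sst, Avp, Oxt, Hcrt, Npff and Rln3 included, were called under other settings. Ucn had no count in 21 of 23 IP and 13 of 23 supernatant libraries. Npvf, the precursor of the RFamide peptides that inhibit GnRH neurons, had no count in 16 of 23 IP libraries and reached 5.441 CPM in a single adult DHT IP library. Hcrt had no count in 4 of 11 adult IP libraries and reached 4.443 CPM in an adult vehicle supernatant, the same library in which Pmch was high. Ucn3 (urocortin 3) of the perifornical area ran from 0.0256 to 10.34 CPM over the IP libraries and from 0.525 to 4.982 CPM over the supernatants.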

How the data were processed

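Poly(A) RNA of IP and supernatant was made into unstranded libraries with a SMARTer ultra-low input kit, per the labels' protocols. The authors deposited 1 table of estimated counts per gene for 48 libraries, of which 98.49% of values are whole. The submitters' processing notes name the mm10 build, HTSeq 0.6.1 and DESeq2 1.14.1, the aligners TopHat2 2.0.13 and Bowtie2 2.2.1, FastQC 0.11.3, Cuffdiff 2.1.1 and Cufflinks. The notes as given do not say which of them made the table.

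Estimated counts were rounded, and genes were kept by edgeR's filterByExpr (minimum count 10, minimum total 15). Differences were tested with edgeR 4.0.16 in R 4.3.3 (TMM normalization, robust quasi-likelihood F test) and p-values were adjusted by Benjamini-Hochberg over all genes of a fit. The IP against supernatant fit used 46 libraries and 16660 genes, the IP fit 23 libraries and 15890 genes, and the supernatant fit 23 libraries and 16286 genes, each with 1 mean per group. A gene was called at an adjusted p below 0.05, and standard errors are the log2 fold change divided by the square root of F. CPM were scaled to library totals. Alternatives used limma 3.58.1 (voom with sample weights), DESeq2 1.42.0, other normalizations, filters and sample sets, and each replicate left out. The fitting code was tested on simulated data, in which 100 genes were changed 2-fold and 100 others 4-fold. These genes were drawn from those averaging over 1 CPM.

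Correlations used log2(CPM + 0.1) centred on group means, with 100000 permutations within groups. The 35 members and the gene lists were chosen with earlier results of these data known. Genes named in each comparison were the called members whose higher group averaged 1 CPM or more or, where none was called, the 3 members with the smallest p; Agrp, Apln in adult DHT mice and other members outside this rule were named after their values were seen. Library totals were 28136004 to 55479453, so 1 count weighs under 0.1 CPM, and intervals from counts cover counting error only.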

Additional observations from a re-analysis of the deposited data

Results flagged for a closer look

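A library was picked out when its gap to the nearest other library of its group, divided by the group's range, passed Dixon's 95% critical value. Over 18 members and 8 groups (144 combinations) 16 were picked out, 15 as the highest and 1 as the lowest. For normally distributed values chance picks out about 1 in 20 groups. The rule was run on untransformed CPM, whose distribution was not tested, so that rate is no measure for the 16.

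Pmch accounted for the most. It was highest, in CPM, at 24.1 in IP adult DHT 5 (others up to 1.811) and 14.4 in the supernatant of the same number (others up to 1.782). It was 9.87 in IP adult vehicle 3 (others up to 0.8142) and 4.20 in the supernatant of that number (others up to 0.6489). In the supernatant young DHT 5 it was 3.69 (others up to 0.7819).

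Oxt was 418 CPM in IP adult DHT 5 (others up to 150.3) and 517 CPM in the supernatant of that number (others up to 175.2), the libraries in which Pmch was also highest. The library labelled supernatant young vehicle 6 held the highest Oxt at 367 CPM, Avp at 319 CPM (others up to 144.8) and Cartpt at 51.1 CPM (others up to 38.2) of its group. The library labelled IP young vehicle 6 held the highest Npy at 41.8 CPM (others up to 21.99).

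Nts was 137 CPM in IP adult vehicle 5, Adcyap1 33.1 CPM in IP adult DHT 2, Nms 8.82 CPM in IP adult vehicle 3 and Apln 18.6 CPM in IP young DHT 1, each the highest of its group. Pomc was 3.69 CPM in IP adult vehicle 2, the lowest of its group (others from 10.08). What sets these libraries apart was not tested.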

How the results depend on the processing

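Over 64 results for single members, 501 of 525 values under other settings kept direction and side of the threshold, 23 lost the call, 1 gained it and 0 reversed; with 1 library left out 1145 kept both, 128 lost the call, 1 gained it and 0 reversed. These 64 are the results named in each comparison, mostly calls, so calls gained by other members are outside this tally. Such gains occurred. Avp and Oxt were called in adult against young IP, over both treatments, with a term for the last 10 sample numbers. Vip and Ucn3 were called in adult against young supernatant, over both treatments, with limma-voom. Causes were not tested. Member counts that moved by over 1.5 times were, for adult against young IP, DHT mice (0 in the report), 1 with DESeq2; both treatments (4), 2 without the last 10 sample numbers; and vehicle mice (1), 2 with DESeq2, 5 with limma-voom, 0 with the replicate block, 3 with a term for the last 10 sample numbers and 2 without them. For IP against supernatant they were, in young DHT mice (1), 3 with limma-voom and 5 with those groups alone, and in young vehicle mice (3), 5 with limma-voom, 5 with those groups alone and 1 without the last 10 sample numbers. The correlation of Pomc with Cartpt was -0.1448 without those libraries.

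The numbers did not meet the rule for pairing, since 11 of 23 pairs of IP and supernatant correlated above 0.1 over all genes, and the replicate block was run as an alternative. It gave 12 members in place of 6 for the mean of IP over supernatant: 6 higher, with Crh (0.27) called and Nppa not, and 6 lower, Npff (-2.69), Rln3 (-1.99), Adcyap1 (-0.36), Trh (-0.27), Penk (-0.27) and Sst (-0.16), with the median of all genes at -0.2078, and 4 in adult DHT (2), 5 in adult vehicle (2) and 4 in young DHT mice (1). Npff and Rln3 had no count in 12 and 11 of the 23 IP libraries. Of the 23 IP libraries, 17 correlated best with the supernatant of their own number among those of their condition, a hint of pairing from the data. The sample numbers also run through groups and replicates in the same order in both fractions. The labels do not say that a shared number is 1 animal.

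Leaving out 1 library gave 1 to 5 members for adult against young IP over both treatments, 0 to 2 in vehicle and 0 in DHT mice. In the supernatant it gave 8 to 15 over both treatments, 5 to 10 in vehicle and 2 to 4 in DHT mice. For IP against supernatant it gave 5 to 8 for the mean, 2 to 3 in adult DHT, 2 to 3 in adult vehicle, 1 in young DHT and 3 to 4 in young vehicle mice, and 0 to 1 for the age by fraction interaction. All DHT comparisons and both age by treatment interactions stayed at 0 members.

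Counts over all genes that moved by over 1.5 times were, for adult against young IP, DHT mice (1131), 1820 with DESeq2, 672 with a term for the last 10 numbers and 277 without them; both treatments (2402), 1467 without them; and vehicle mice (608), 1239 with DESeq2, 989 with limma-voom and 372 without them. In DHT supernatant (3248) they were 1919 with the term and 1121 without these libraries. DHT against vehicle gave 208 with DESeq2, 0 with limma-voom and 0 with those groups alone in adult IP (1), 1 with limma-voom in adult supernatant (0), 11 with DESeq2 in young IP (0), and 1 with DESeq2 and 39 without the last 10 in young supernatant (0). The age by treatment interaction gave 83 with DESeq2 in IP (0) and 4 without the last 10 in supernatant (0). IP against supernatant gave 2090 with those groups alone in adult DHT (3576), 2480 likewise in adult vehicle (4002), 1584 without the last 10 in young DHT (3324) and 5653 with limma-voom in young vehicle mice (3643).

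Ucn, Npvf and Calcb had no count in 21, 16 and 15 of 23 IP libraries, against 13, 7 and 2 of 23 supernatants. Median library totals were 39475118 in the IP and 40344900 in the supernatant. The reason for the empty libraries was not tested. Ucn did not pass the filter on low counts; with no such filter edgeR called it lower in the IP than in the supernatant (-1.55 ± 0.60, adjusted p 0.03609), and DESeq2 did not call it.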
